A study of Mus musculus with 51 samples.

Results

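The nuclear receptor genes were followed through astrogliogenesis by their peaks of H3K27ac, acetylation of lysine 27 of histone H3, and H3K4me1, monomethylation of lysine 4. The members were 41 genes of the nuclear receptor superfamily, named from textbook knowledge, of 22359 coding genes of the annotation. A peak was assigned to a member when it overlapped the gene body extended by 10 kb on each side, in the mm9 build, by at least 1 bp. The receptors were taken in 7 groups by role, from the thyroid hormone and retinoid receptors to the NR5 and NR6 receptors.

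The cells were ES cell-derived cultures of C57/BL-6 background, and none of the samples used here was tissue. Astroglial progenitors (aNPC) grew in DMEM-F12 with N2, EGF and FGF-2. Differentiation in DMEM with 1% FBS and LIF gave early astrocytes after 1 day (eA) and late astrocytes after 5 days (lA). Both marks were measured by chromatin immunoprecipitation followed by sequencing (ChIP-seq), with 2 replicates per stage and mark, which makes 12 of the 51 samples of the series. The replicates were merged before peaks were called, so each stage and mark had 1 peak list. No spread between replicates could be given and no test was made. Differences between stages are therefore differences between 6 lists, and the intervals printed are 95% Wilson intervals over peaks, which cover counting error only. Peaks of a list do not stand in for replicates.

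Nuclear receptors are transcription factors that share a zinc finger DNA-binding domain and, in most cases, a domain that binds a lipophilic ligand such as thyroid hormone, retinoic acid, vitamin D, a steroid or a fatty acid. Many of them bind copies of the hexamer AGGTCA, alone or as dimers with an RXR partner, and recruit corepressors or coactivators that remove or add histone acetylation. In the brain they are known for the timing of glial differentiation, for the upkeep of neural stem cells and for the astrocyte's handling of cholesterol. H3K27ac marks active promoters and enhancers, and H3K4me1 marks enhancers that are primed or active.

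Over aNPC, eA and lA, the H3K27ac lists had 79413, 83433 and 92700 entries and the H3K4me1 lists 154238, 185478 and 208333. The peak lists do not carry the read depth, which is unknown, so the growth of the lists along differentiation and a gain of peaks at a gene cannot be told apart from the lists alone. Marker genes were checked in the same way. The 6 astroglial markers had 39, 55 and 50 H3K27ac peaks in aNPC, eA and lA. Gfap, the intermediate filament of astrocytes, went from 3 to 6 and 8, Aqp4 from 3 to 5 and 5, Slc1a3 from 12 to 18 and 13, and Aldh1l1 from 17 to 23 and 21. Gja1 held 1 peak at each stage and S100b 3, 2 and 2. Promoter H3K27ac was found in aNPC only for S100b, in eA and lA only for Gja1 and in lA only for Aqp4. The 4 progenitor markers had 24, 23 and 24 peaks. The 4 neuronal markers had 8, 11 and 7 peaks, with Dcx going from 6 to 1 and 0 and Rbfox3 from 0 to 7 and 5. The Rbfox3 window is 442 kb long, and no promoter of Rbfox3 held H3K27ac at any stage. The study saw neither expression of Rbfox3 nor enrichment of H3K27ac at it in these stages. No promoter of the 3 oligodendrocyte, 3 microglial or 2 pluripotency markers held H3K27ac at any stage, although their windows held 9, 14 and 14, 4, 5 and 4, and 3, 4 and 4 peaks. The part of other cell types in the peaks of the receptor genes was not tested.

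Sequences are shown for some of the peaks in the receptor windows and for 1 region upstream of a start site. All are read from the mm9 genome, 5′ to 3′. In the first 3 windows, 200 bp around the summit of a peak found at 1 stage only, the capitals mark AGGTCA or its reverse complement. They were the unique peaks with the highest −log10 q, the authors' significance value, among those that held the hexamer at the members described in full.
Thrb, aNPC only, chr14:18834202-18834401, + strand: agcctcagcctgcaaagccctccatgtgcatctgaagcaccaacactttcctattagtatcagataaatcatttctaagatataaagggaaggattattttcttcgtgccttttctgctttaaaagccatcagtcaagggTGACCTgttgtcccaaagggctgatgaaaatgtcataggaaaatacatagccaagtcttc
Rara, eA only, chr11:98828414-98828613, + strand: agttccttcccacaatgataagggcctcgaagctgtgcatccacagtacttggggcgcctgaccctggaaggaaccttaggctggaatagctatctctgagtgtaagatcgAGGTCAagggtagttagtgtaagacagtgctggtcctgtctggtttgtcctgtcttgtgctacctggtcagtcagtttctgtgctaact
Rarb, lA only, chr14:17509233-17509432, + strand: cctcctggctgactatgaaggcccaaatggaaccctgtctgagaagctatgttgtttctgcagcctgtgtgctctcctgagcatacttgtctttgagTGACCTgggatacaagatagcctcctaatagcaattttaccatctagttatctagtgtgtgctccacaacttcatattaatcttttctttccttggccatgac

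The next window is the 200 bases upstream of the second coding start site of Rarb, on the strand of the gene, shown because H3K27ac differed between stages there. The capitals mark 2 copies of GTTCA in the same direction, whose starts lie 11 bases apart. A direct repeat of this kind is the known retinoic acid response element of this promoter. The repeat began 56 bases upstream of the start site, and it was found on either strand in 15 of 45962 windows of this length upstream of coding start sites (0.0326%). Among the 139 start sites of the receptor genes, 1 had it.
Rarb, upstream of the second start, chr14:17407987-17408186, − strand: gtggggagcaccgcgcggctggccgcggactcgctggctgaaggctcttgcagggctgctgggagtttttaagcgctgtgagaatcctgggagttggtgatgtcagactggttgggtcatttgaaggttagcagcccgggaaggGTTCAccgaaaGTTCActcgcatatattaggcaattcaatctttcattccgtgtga

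The last windows surround the summits of the lA peaks with the highest −log10 q at Esr1 and Vdr, both in introns, and of the peak with the highest −log10 q of all the receptor genes in aNPC, in the downstream flank of Nr4a1. The Esr1 and Vdr windows were searched on both strands for the 6 motifs named below, and that of Nr4a1 for AGGTCA alone. In the Esr1 window the capitals mark the reverse complement of TTGGCA, part of the binding site of NF1 factors, and the Vdr window held no match. In the window at Nr4a1, AGGTCA was absent. That peak lay at the promoter of another gene, 9430023L20Rik, and was the strongest of the receptor windows at every stage.
Esr1, lA, chr10:5352866-5353065, + strand: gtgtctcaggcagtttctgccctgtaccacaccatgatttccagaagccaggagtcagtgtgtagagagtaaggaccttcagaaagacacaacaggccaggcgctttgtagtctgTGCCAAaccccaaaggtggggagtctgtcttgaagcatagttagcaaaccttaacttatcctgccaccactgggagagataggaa
Vdr, lA, chr15:97702447-97702646, + strand: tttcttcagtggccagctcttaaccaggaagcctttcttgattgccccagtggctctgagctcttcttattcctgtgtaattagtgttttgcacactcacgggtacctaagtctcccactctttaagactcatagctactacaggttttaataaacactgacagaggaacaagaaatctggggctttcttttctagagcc
Nr4a1 flank, aNPC, chr15:101114488-101114687, + strand: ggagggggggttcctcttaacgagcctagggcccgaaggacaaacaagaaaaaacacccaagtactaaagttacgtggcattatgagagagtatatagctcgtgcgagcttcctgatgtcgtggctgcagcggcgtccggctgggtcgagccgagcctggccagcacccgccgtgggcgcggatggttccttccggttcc

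Nearly every receptor gene carried H3K27ac during astrogliogenesis. The windows of the members had 319, 299 and 329 distinct H3K27ac peaks in aNPC, eA and lA. With the same number of peaks taken from each list they had 319, 291 and 273. At least 1 H3K27ac peak was found at 35 of the 41 members in aNPC and at 38 in each later stage, where 69.5%, 71.7% and 70.5% of all coding genes had one. The receptor genes are long, with a median window of 76.2 kb against 35.4 kb over all coding genes, and a longer window holds more peaks. Per 100 kb of window, the median number of H3K27ac peaks was 7.20, 7.16 and 7.55 at the members against 3.88, 4.63 and 4.53 over all coding genes. In covered sequence, H3K27ac peaks took 179, 160 and 174 kb of the windows.

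H3K27ac was present at every stage at 34 members (65.1% of all coding genes), at some stages at 5 (10.5%) and at none at 2 (24.4%). The members without a peak were Rxrg, an RXR partner receptor of muscle and brain, and Hnf4a, a receptor of liver and gut. Hnf4g, its close relative, had 1 peak, in lA. Nr2e1 had peaks in aNPC and eA, and Esr1, Esr2 and Nr5a1 in eA and lA.

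**Figure D1:**
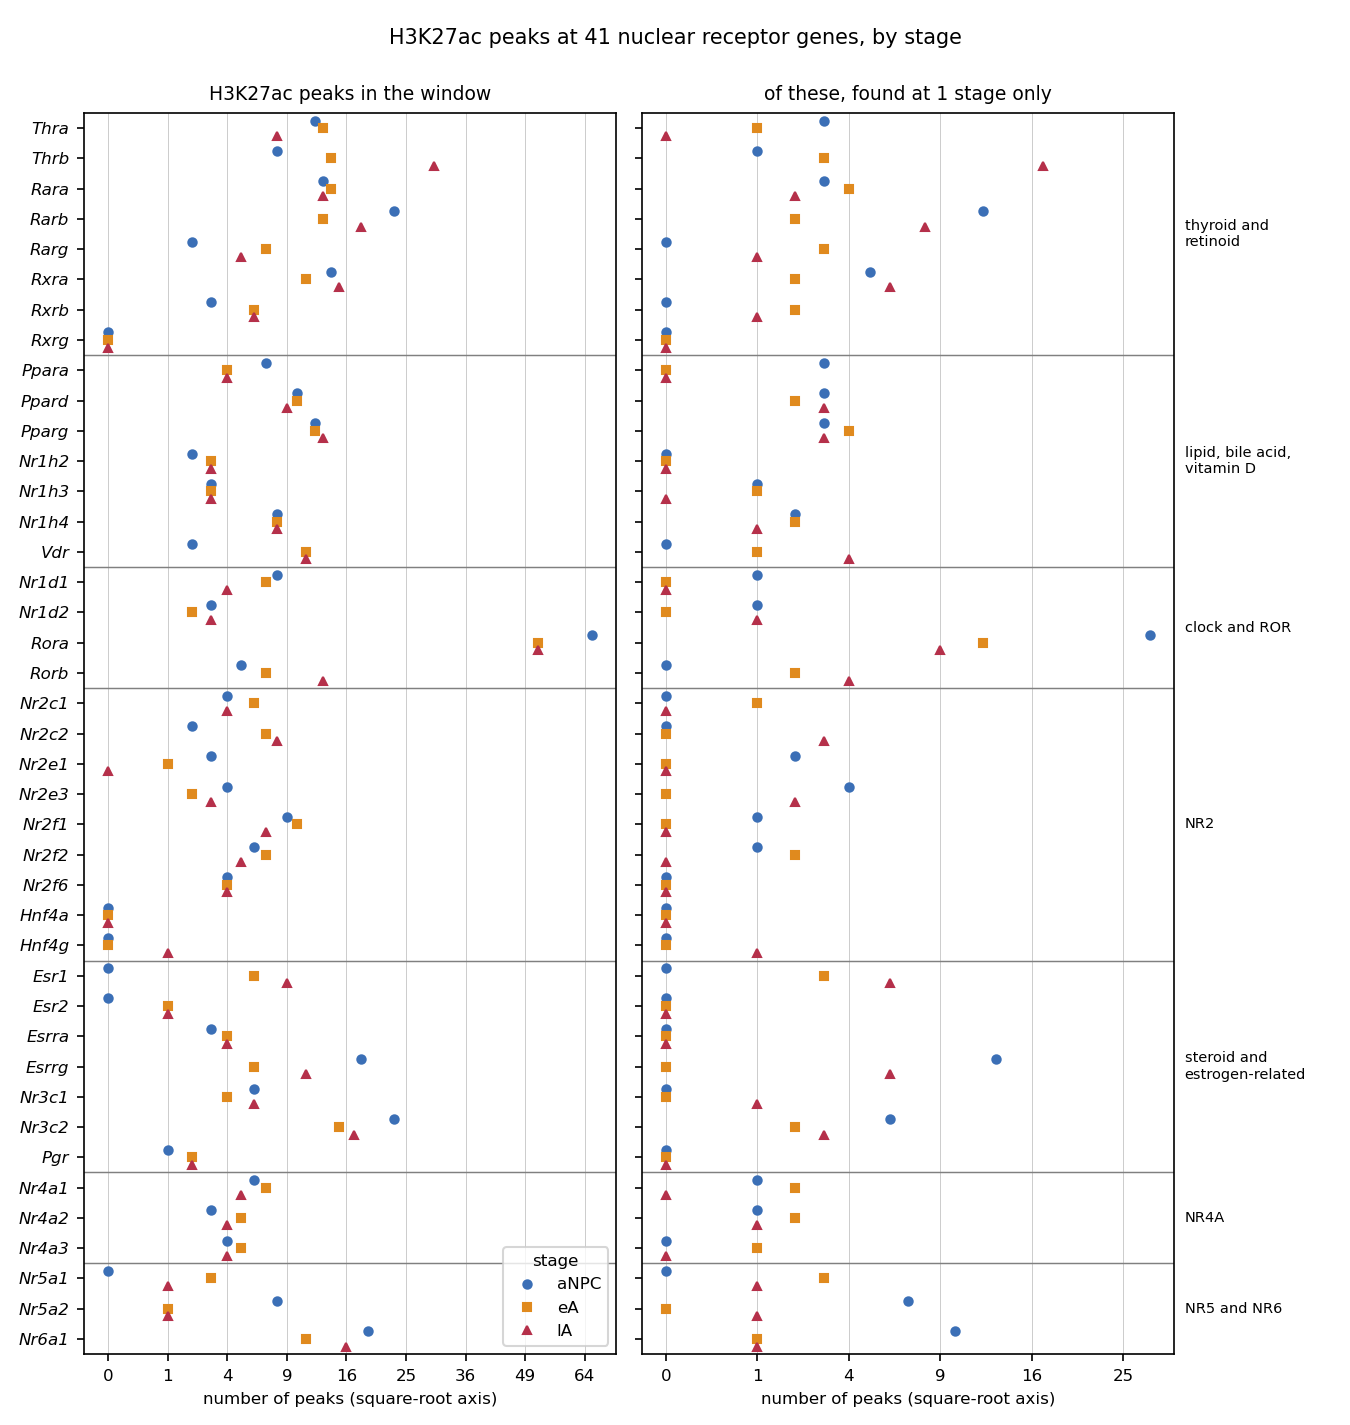
H3K27ac peaks in the window of each of 41 nuclear receptor genes (left) and those found at 1 stage only (right), as numbers of peaks on a square-root axis, for aNPC (circles), eA (squares) and lA (triangles). Thrb stands at 8, 14 and 30 peaks, Vdr at 2, 11 and 11, Esr1 at 0, 6 and 9, and Nr5a2 at 8, 1 and 1.

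The stages were compared by calling a gene when its H3K27ac peaks changed at least 2-fold and by at least 3 peaks, with 0 peaks taken as 0.5. From aNPC to eA, 6 of 36 members with at least 3 peaks at either stage had more peaks, where 15.6% of such coding genes did, and 2 had fewer, where 6.35% did. From eA to lA, 1 of 34 had more (5.39% of coding genes) and none had fewer (5.43%). From aNPC to lA, 7 of 35 had more (17.1%) and 3 had fewer (7.38%). The members were thus called at shares near those of all coding genes, and what follows describes which receptors they were.

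The thyroid hormone and retinoid receptors bind T3, retinoic acid and 9-cis-retinoic acid. Among them, H3K27ac spread over Thrb. Rarb was not called by these limits, and its peaks lay at partly different places between stages. Thrb (chr14:18493474-18870602, + strand) encodes the thyroid hormone receptor beta. Along the stages its H3K27ac peaks numbered 8, 14 and 30, and covered 4.94, 6.70 and 14.6 kb. Of the 30 lA peaks, 17 overlapped no peak of the other stages. This was the highest number of lA-unique peaks at any member, and all but 1 of them had their summits in introns, the other in an exon. H3K4me1 peaks also went up at Thrb, from 29 to 38 and 58.

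The lA-unique peaks of Thrb were spread from 14.5 to 375 kb from the 5′ end. Their −log10 q ran from 2.73 to 27.6, with several under 5, and the highest was at a peak 258 kb into the gene. In aNPC, 6 of these 17 places already carried an H3K4me1 peak, in eA 11, and in lA 15. The promoter at the 5′ end had H3K27ac and H3K4me1 at every stage, and neither of the other coding start regions, at 321 and 340 kb, had a peak of either mark. The only aNPC-unique peak of Thrb, shown above, had its summit 503 bp downstream of the start site at 340 kb. From eA to lA the call of Thrb was lost when every list was shortened to the same number of peaks, and from aNPC to lA it held under each alternative tried.

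Thra, the thyroid hormone receptor alpha, held 12, 13 and 8 H3K27ac peaks. Its window overlaps that of Nr1d1, and they shared 5, 5 and 2 of these peaks. Per length, Thra was among the most densely marked coding genes, at the 98.9th, 98.8th and 92.4th percentile of H3K27ac peaks per 100 kb.

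Rarb (chr14:17263356-17651381, − strand), the retinoic acid receptor beta, held 23, 13 and 18 H3K27ac peaks, of which 12, 2 and 8 were found at that stage only. The lA-unique peak with the highest −log10 q (19.9) is the one whose sequence is shown above, 142 kb from the 5′ end. Rarb has 2 promoters, 243 kb apart, from which isoforms of the receptor start. The first promoter overlapped an H3K27ac peak in aNPC and eA and none in lA, where the nearest peak had its summit 0.906 kb into the gene. The second promoter overlapped none in aNPC and 1 at each later stage, with H3K4me1 at all 3 stages. The eA peak at chr14:17407404-17408350 covered the direct repeat shown above, and the lA peak at chr14:17407452-17407955 ended downstream of the start site without covering it. In aNPC, 3 H3K27ac peaks had their summits at 241.5, 241.8 and 242.2 kb, upstream of the second start at 243.4 kb. The nearest of them began at chr14:17409006, just past the edge of the promoter interval at 17408986. The difference at this promoter thus depends on where its interval ends.

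Rarg (chr15:102065369-102087948, − strand), the retinoic acid receptor gamma, held 2, 7 and 5 H3K27ac peaks. Its first promoter overlapped 2 peaks in eA and none in aNPC or lA, with H3K4me1 throughout. The second promoter, 11.02 kb into the gene, was marked at every stage. In eA 1 and in lA 2 of the peaks lay in the downstream flank at the promoter of Itgb7. The calls of more peaks from aNPC were lost with 50 kb flanks, in covered bases and when peaks under 1 kb apart were joined, which gave 1, 3 and 2 peaks.

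Rara (chr11:98789132-98836256, + strand), the retinoic acid receptor alpha, held 13, 14 and 13 peaks, with 3, 4 and 2 of them unique to their stage and 6 of its 19 sites marked at every stage. Its 2 downstream promoters differed, as the one at 32.6 kb overlapped H3K27ac in aNPC and eA and the one at 37.1 kb in aNPC and lA. Rxra (chr2:27531960-27618477, + strand), the RXR that pairs with most of these receptors, held 14, 11 and 15 peaks, with 5, 2 and 6 unique. Its promoter and the peak 1.3 to 1.4 kb into the gene were found at every stage.

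Rxrb (chr17:34168757-34175338, + strand), another RXR, went from 3 to 6 and 6 peaks, yet the covered sequence stayed at 3.51, 3.93 and 3.78 kb, and joining peaks under 1 kb apart gave 3 at each stage. A single peak at its promoter in aNPC stood where 3 peaks stood in eA and in lA. That promoter also serves Slc39a7, and the strong peak upstream lies at the promoter of Ring1. Pieces of the same site thus made up a part of its count, and its calls were also lost with 50 kb flanks and in covered bases, and that from aNPC to lA at a −log10 q of at least 5.

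Among the sensors of lipids, bile acids and vitamin D, Vdr had more H3K27ac peaks in eA and lA than in aNPC, a call that was lost with 50 kb flanks. Vdr (chr15:97684856-97741061, − strand) encodes the vitamin D receptor. Its 2 H3K27ac peaks in aNPC lay in the downstream flank, and eA and lA had 11 each, which covered 0.746, 4.44 and 5.92 kb. None of the aNPC peaks lay in the gene body. The peak with the highest −log10 q lay in an intron 39.0 kb from the 5′ end in eA and 38.5 kb in lA, and ranked in the top 24.6% of the eA list and the top 14.6% of the lA list. Of the 9 eA peaks without H3K27ac in aNPC, 5 overlapped an H3K4me1 peak in aNPC, and H3K4me1 peaks at Vdr went from 8 to 24 and 20. The promoter 2.3 kb into the gene overlapped H3K27ac in lA only, at a site whose eA peak lay just downstream of the promoter region.

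The LXR and FXR genes, for receptors of oxysterols and bile acids, changed little in number. Nr1h3 (chr2:91024218-91042991, − strand), or LXR alpha, held 3 H3K27ac peaks at every stage, but most of these lay at the promoters of its neighbours Madd and Acp2. The promoter of Nr1h3 itself overlapped a peak in eA only, with a −log10 q of 14.5, and carried H3K4me1 at every stage. Nr1h2 (LXR beta) held 2, 3 and 3 peaks with its promoter marked throughout. Nr1h4 (FXR) held 8, 8 and 8 peaks and none at its promoters.

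The PPAR genes encode receptors of fatty acids. Pparg (chr6:115311239-115440419, + strand) held 12, 12 and 13 H3K27ac peaks, 3, 4 and 3 of them unique, with a weak peak at its second promoter in eA only (−log10 q of 3.12). Ppard held 10, 10 and 9 and Ppara 7, 4 and 4. Of the 7 aNPC peaks of Ppara 3 were unique, and none of its eA or lA peaks was.

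Among the clock and ROR receptors, the repressors Nr1d1 and Nr1d2 and the activators Rora and Rorb, counts differed in direction between members. Rora (chr9:68501593-69236053, + strand) held 66, 52 and 52 H3K27ac peaks, the most of any member, in a window of 754 kb that was also the longest. Unique peaks numbered 28, 12 and 9, and the covered sequence went from 36.0 to 24.5 and 24.5 kb. At the same time its H3K4me1 peaks went from 97 to 114 and 163. Of the 28 aNPC-unique H3K27ac peaks, 22 overlapped H3K4me1 in aNPC, and 14, not all of them among these, did so in lA.

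Rorb (chr19:19005095-19185686, − strand) held 5, 7 and 13 H3K27ac peaks. Its promoter was marked at every stage, and all but 1 of the other lA peaks lay in introns. The 4 lA-unique peaks had −log10 q values from 3.71 to 6.40, and the call of more peaks from aNPC to lA was lost at a minimum of 5, with the same number of peaks in each list and in covered bases. Nr1d1 (chr11:98629246-98636647, − strand) held 8, 7 and 4 peaks, and covered sequence went from 3.93 to 3.27 and 2.33 kb. Its promoter overlapped 2 peaks at each stage. Of the 8 aNPC peaks, 3 overlapped no lA peak, and these lay in the downstream flank or within the gene. Another aNPC peak, at the upstream edge of the window, overlapped an lA peak that was not counted because it lay outside the window. The call of fewer peaks from aNPC to lA thus depends on where the window ends. The call of fewer peaks was lost with 50 kb flanks, at a −log10 q of at least 5, in covered bases and when peaks under 1 kb apart were joined, which gave 4, 3 and 2. Nr1d2 held 3, 2 and 3.

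Among the NR2 orphan receptors, Nr2e1 lost its H3K27ac. Nr2e1 (chr10:42281769-42303438, − strand) encodes TLX, a repressor that maintains neural stem cells. In aNPC it had 3 H3K27ac peaks, of which eA kept 1 and lA 0, and these covered 1.28, 0.268 and 0 kb. Its first promoter overlapped 2 peaks in aNPC with a highest −log10 q of 13.6, and 1 in eA at 6.38. The same promoter overlapped 2 H3K4me1 peaks at each stage. The promoter overlaps that of Ostm1, the gene on the other strand. The call rests on 3 peaks, and it ended when peaks under 1 kb apart were joined or a −log10 q of at least 5 was asked for.

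Nr2c2 (chr6:92041384-92123051, + strand), the testicular receptor 4, held 2, 7 and 8 H3K27ac peaks, and the covered sequence was 2.08, 4.45 and 4.22 kb. Both aNPC peaks lay at the 5′ end. In eA, 4 of the 7 peaks lay at the promoter, where aNPC had 2, and joining peaks under 1 kb apart gave 1, 3 and 5. The call from aNPC to eA was lost when peaks were joined and with 50 kb flanks, and that from aNPC to lA at a −log10 q of at least 5. The other 3 eA peaks lay in introns, and one of these sites, with a −log10 q of 27.3 in eA and 34.0 in lA, had no counterpart in aNPC.

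Nr2f1 and Nr2f2, the COUP-TF genes of neural patterning and gliogenesis, held 9, 10 and 7 and 6, 7 and 5 H3K27ac peaks. Nr2f1 was at the 99.5th, 99.5th and 97.8th percentile of peaks per 100 kb among coding genes, and 6 of its 8 sites were found at all stages. Nr2c1 held 4, 6 and 4 peaks. Nr2f6 held 4 at every stage, and none of them was unique. Nr2e3, a receptor of photoreceptors, held 4, 2 and 3 peaks and none at its promoter.

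Among the steroid and estrogen-related receptors, Esr1 went from no H3K27ac to 9 peaks. Esr1 (chr10:5340927-5734948, − strand) encodes the estrogen receptor alpha. It went from 0 H3K27ac peaks to 6 and 9, which covered 0, 2.30 and 4.57 kb. In a window of 414 kb these peaks were sparse, at the 15.3rd, 30.7th and 35.0th percentile of H3K27ac peaks per 100 kb among coding genes. The strongest lay in an intron 382 kb from the 5′ end at both later stages, and ranked in the top 26.3% of the eA list and the top 8.96% of the lA list. Its summit window in lA is shown above. Another intronic site was marked at 38.5 kb in eA and 38.3 kb in lA.

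H3K4me1 preceded a part of this acetylation. In aNPC, Esr1 held 13 H3K4me1 peaks, and 3 of the 6 eA peaks and 3 of the 9 lA peaks overlapped one of them. No coding promoter of Esr1 held H3K27ac at any stage. Esr2, the estrogen receptor beta, held 0, 1 and 1 H3K27ac peaks and 2, 6 and 10 H3K4me1 peaks. Pgr, the progesterone receptor, held 1, 2 and 2 H3K27ac peaks.

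Esrrg (chr1:189432670-190038764, + strand), the estrogen-related receptor gamma of oxidative metabolism, held 18, 6 and 11 H3K27ac peaks. The covered sequence was 8.81, 3.09 and 4.25 kb. Of the 18 aNPC peaks 13 were unique, and of the 11 lA peaks 6 were, none of which overlapped an H3K4me1 peak in aNPC. The lA-unique peaks lay from 291 to 322 kb and at 496 kb, and the aNPC-unique peaks within the gene from 51.9 to 509 kb. A peak 179 kb into the gene was found at all 3 stages, although neither annotated coding promoter held H3K27ac. The call of fewer peaks from aNPC to eA held under each alternative tried. Esrra, its relative, held 3, 4 and 4 peaks with none unique.

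The corticosteroid receptors changed less. Nr3c1, the glucocorticoid receptor, held 6, 4 and 6 H3K27ac peaks, and 4, 4 and 3 of them lay at its promoter. Nr3c2, the mineralocorticoid receptor, held 23, 15 and 17, with 6, 2 and 3 unique.

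The NR4A genes are immediate early genes that respond to calcium and growth factors. They held similar numbers at each stage, with 6, 7 and 5 peaks at Nr4a1, 3, 5 and 4 at Nr4a2 and 4, 5 and 4 at Nr4a3. The first promoter of each of the 3 genes had both marks at every stage, while the last promoter of Nr4a2 and that of Nr4a3 had no H3K27ac.

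Among the NR5 and NR6 receptors, Nr5a2 lost most of its H3K27ac peaks after aNPC. Nr5a2 (chr1:138740161-138857004, − strand) encodes LRH-1, a receptor of pluripotent cells and liver. Its H3K27ac peaks numbered 8, 1 and 1, which covered 2.52, 0.812 and 0.224 kb. Of the aNPC peaks 7 were unique, and 1, 11.5 kb into the gene, was found again in eA and not in lA. H3K4me1 peaks at Nr5a2 did not go down, with 17, 22 and 20, and 4 of the 7 sites overlapped one in lA. Nr5a2 was among the called members under each alternative tried, from aNPC to eA and from aNPC to lA.

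Nr6a1 (chr2:38578890-38783208, − strand), the germ cell nuclear factor, held 19, 11 and 16 H3K27ac peaks. Of the 19 aNPC peaks 10 were unique, against 1 in eA and 1 in lA. Of these, 3 had their summits in an exon, from 201.1 to 201.8 kb. In eA and lA, 3 peaks from 52.2 to 54.0 kb stood where aNPC had none. Nr6a1 itself was not called. The first of its promoters overlapped H3K27ac in aNPC only, and the second, 1.41 kb downstream, at every stage. Nr5a1 (chr2:38548176-38570062, − strand), the SF-1 receptor of steroidogenic tissue, held 0, 3 and 1 peaks. The 3 eA peaks lay in the downstream flank from 24.3 to 25.1 kb and counted as 1 when joined. Its call was lost then, with 50 kb flanks, at a −log10 q of at least 5 and in covered bases.

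**Figure D2:**
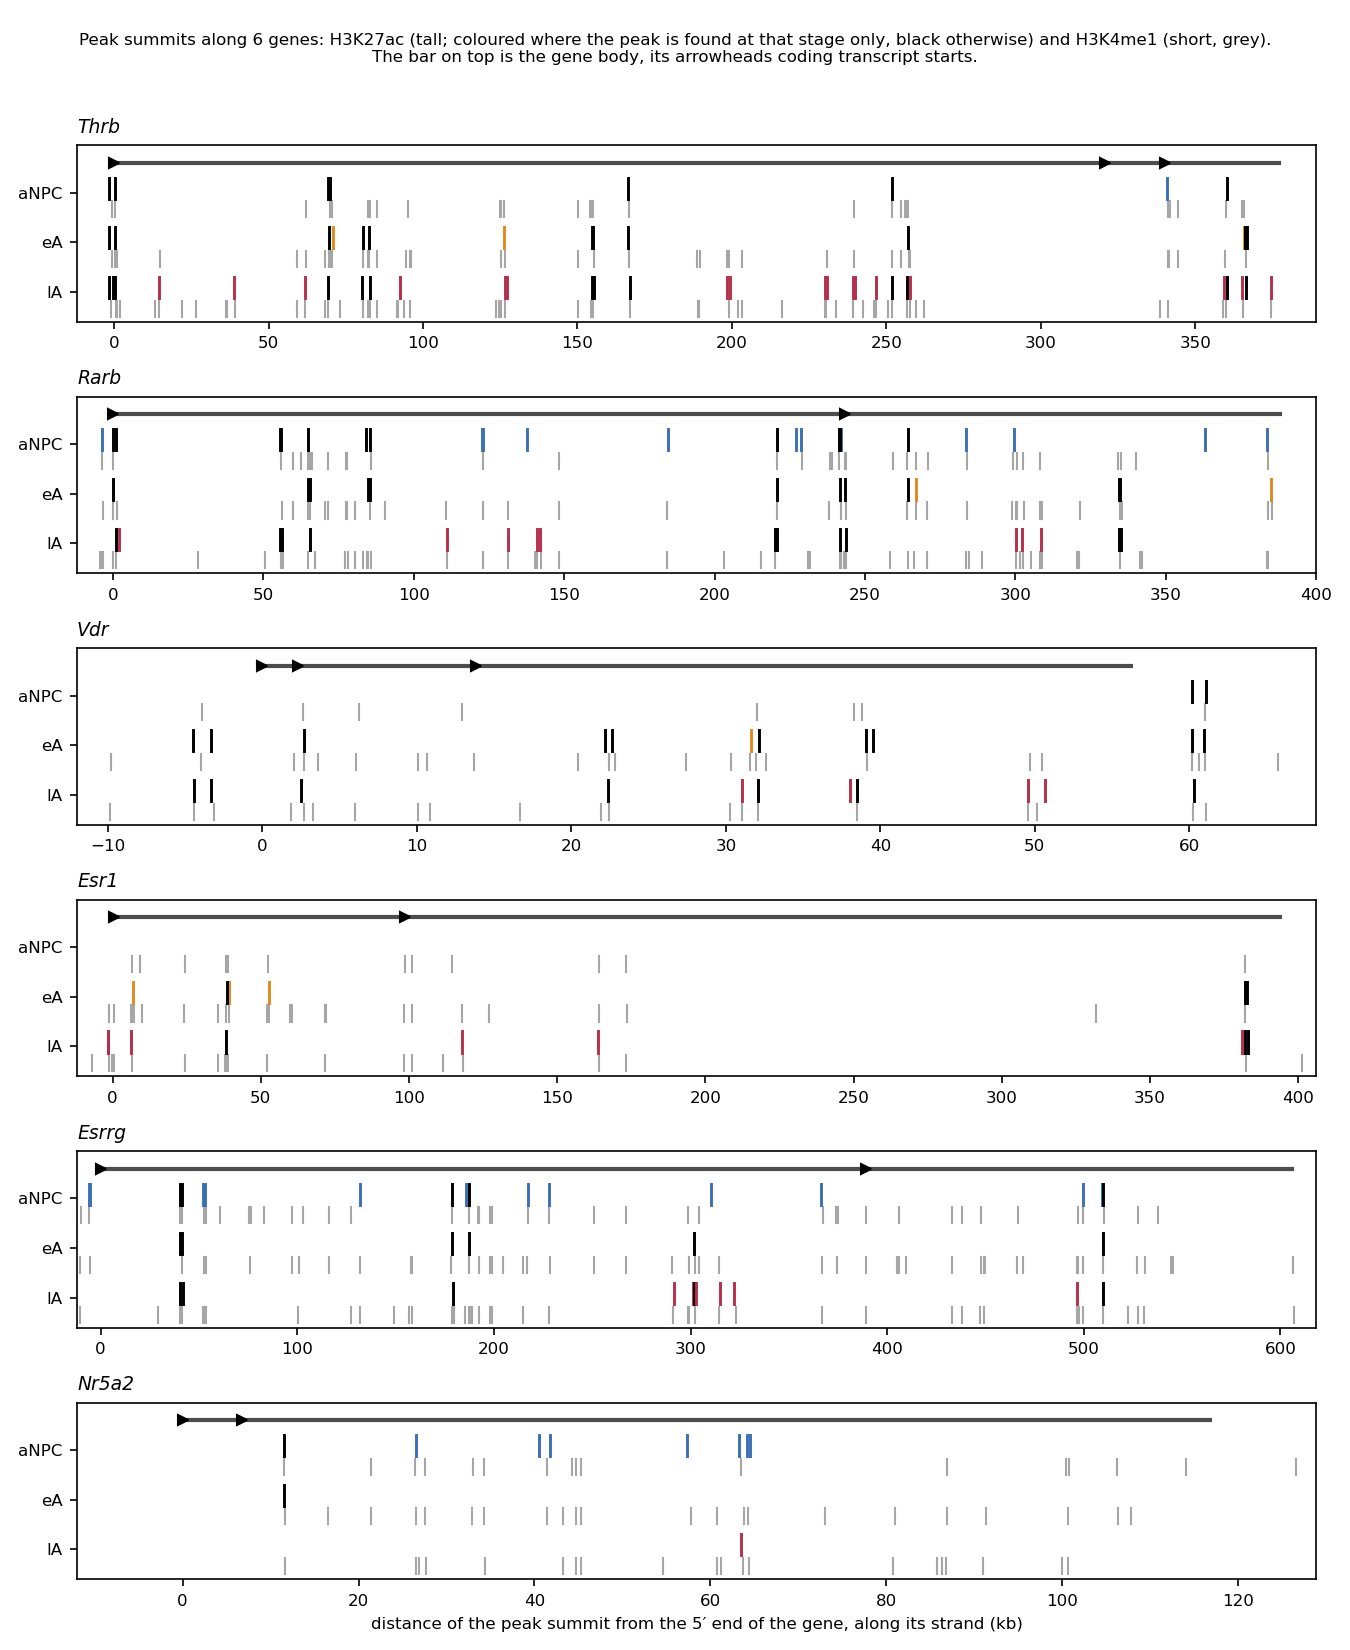
Summits of H3K27ac peaks (tall lines, coloured where found at that stage only and black otherwise) and H3K4me1 peaks (short grey lines) along Thrb, Rarb, Vdr, Esr1, Esrrg and Nr5a2, by distance from the 5′ end in kb, for aNPC, eA and lA. The bar shows the gene body and its arrowheads the coding transcript starts. Esr1 shows no H3K27ac in aNPC, and Nr5a2 shows 8 peaks in aNPC and 1 at each later stage.

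Promoter H3K27ac was found at nearly the same number of receptor genes at each stage. An H3K27ac promoter peak, overlapping the interval that reaches 1 kb before and 100 bp past a coding start, was found at 27, 29 and 27 members, against 50.6%, 53.2% and 48.2% of all coding genes. It was present at every stage at 26 members (45.2% of coding genes) and at no stage at 11 (44.2%). It was present at some stages at 4 members (10.6%), namely Pparg, Nr1h3, Vdr and Nr2e1. At each of these 4 the promoter carried H3K4me1 at all 3 stages.

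H3K4me1 promoter peaks were found at 35, 33 and 33 members, against 55.4%, 53.6% and 52.7% of coding genes. At every stage 5 members had H3K4me1 at a promoter, not always at each of their promoters, and H3K27ac at none, where 5.41% of coding genes did. These were Rxrg, Esr1, Esr2, Esrrg and Pgr, so that 4 of the 7 steroid and estrogen-related receptors were among them. Nr2e3, Hnf4a, Hnf4g, Nr5a1 and Nr5a2 had neither mark at their promoters at any stage, and Nr1h4 had H3K4me1 there in aNPC and eA only.

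**Figure D3:**
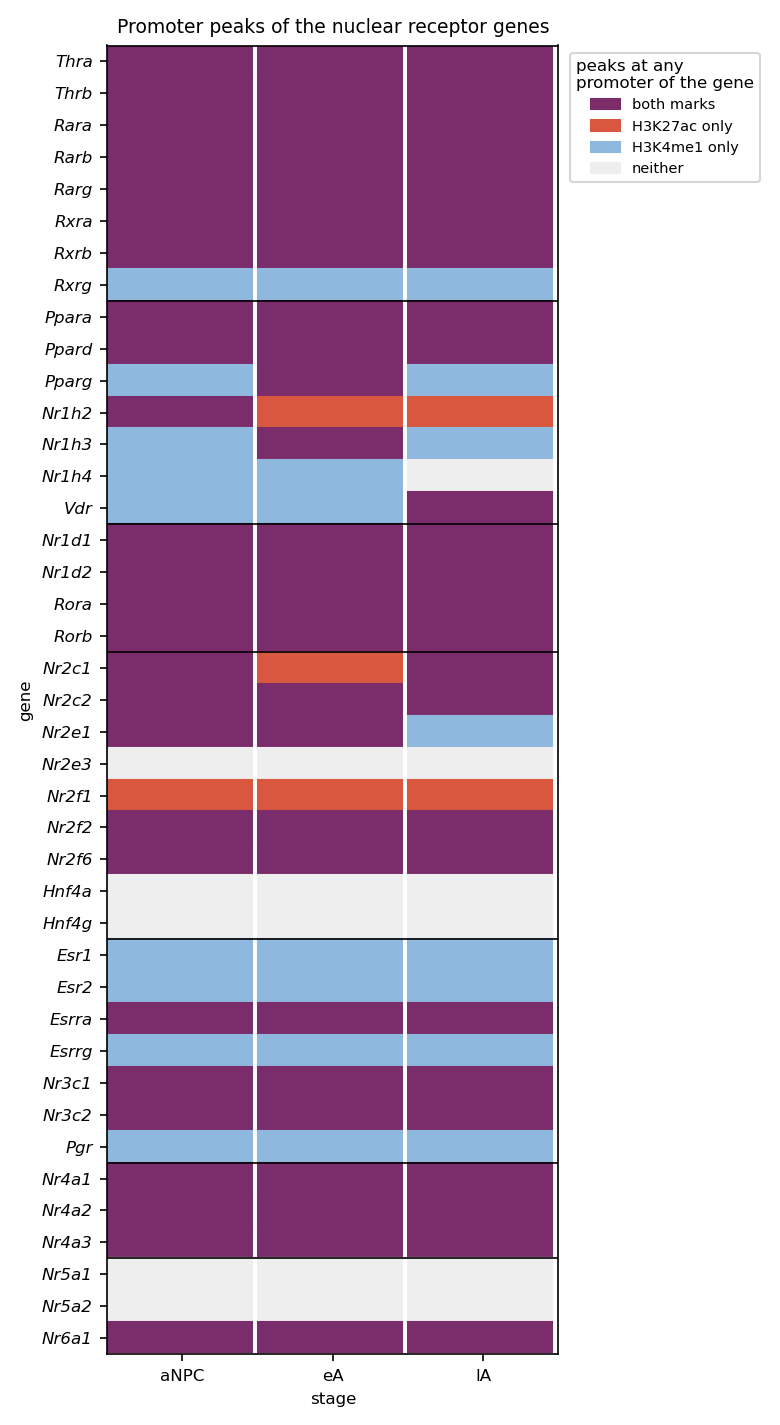
Marks at the promoters of 41 nuclear receptor genes in aNPC, eA and lA, as both marks, H3K27ac only, H3K4me1 only or neither. A mark counts when a peak overlaps any promoter of the gene. Of the genes, 26 hold H3K27ac at every stage and 5 hold H3K4me1 without H3K27ac at every stage.

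Peaks unique to a stage were counted next. Of the 319 H3K27ac peaks in aNPC, 111 were unique (34.8%, 29.8 to 40.2%), of the 299 in eA 58 (19.4%, 15.3 to 24.3%) and of the 329 in lA 86 (26.1%, 21.7 to 31.1%). The shares in the whole lists were 36.0%, 17.7% and 27.7%, inside each interval. At least 1 unique peak was found at 23, 23 and 24 members, where 30.5%, 31.8% and 29.5% of coding genes had one, and at least 3 at 13, 7 and 12, where 9.60%, 6.32% and 8.67% had. Rora, Esrrg, Rarb and Nr6a1 held the most aNPC-unique peaks, with 28, 13, 12 and 10, and Thrb, Rora and Rarb the most lA-unique peaks, with 17, 9 and 8. None of these counts was divided by window length, with a median of 76.2 kb at the members against 35.4 kb over all coding genes. The windows of Rora, Esrrg, Rarb and Thrb were long, at 754, 626, 408 and 397 kb. The 7 members without any unique peak were Rxrg, Nr1h2, Nr2f6, Hnf4a, Esr2, Esrra and Pgr.

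The unique peaks, like all H3K27ac peaks of the members (68.3%, 60.5% and 70.2%), lay mostly in introns. Introns held the summits of 81.1% of the aNPC-unique peaks (72.8 to 87.3%), 63.8% of the eA-unique peaks (50.9 to 74.9%) and 84.9% of the lA-unique peaks (75.8 to 90.9%). Promoters held 1.80%, 8.62% and 1.16% of them. Joined across stages, the H3K27ac peaks of the members made 487 sites, of which 131 were marked at all stages (26.9%, 23.2 to 31.0%), against 30.3% at all coding genes. Sites marked in eA and lA and not in aNPC numbered 48 (9.86%, 7.51 to 12.8%), against 13.7%. Sites marked in aNPC and lA and not in eA numbered 25 (5.13%, 3.50 to 7.47%), against 2.84%, and aNPC-only sites made 22.8% (19.3 to 26.7%), against 18.9%. In these last 3 patterns the value of all coding genes lay outside the interval of the members. Without Rora, which has the most sites, that held only for the sites of aNPC and lA (5.50%, 3.66 to 8.19%), and the others were at 10.5% (7.86 to 13.9%) and 20.8% (17.1 to 25.0%).

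At least 1 H3K4me1 peak was found at 40, 40 and 41 members, where 80.0%, 81.0% and 81.4% of coding genes had one. The H3K4me1 peaks at the members numbered 569, 662 and 786, which was 0.369%, 0.357% and 0.377% of each list. With the same number of peaks taken from each list they numbered 569, 564 and 572, so the higher counts went with the longer lists. As deposited, 66, 54 and 192 of them were unique to their stage, which was 11.6% (9.22 to 14.5%), 8.16% (6.31 to 10.5%) and 24.4% (21.6 to 27.6%), against 12.7%, 10.999% and 28.1% in the whole lists. The eA and lA values of the lists lay above the intervals of the members. Single genes were called by the same limits as for H3K27ac. From aNPC to eA, 2 of 40 members had more H3K4me1 peaks, Vdr and Esr2, where 5.94% of coding genes did, and none had fewer (0.897%). From aNPC to lA, 4 of 40 had more, Thrb, Vdr, Esr2 and Pgr (13.0%), and 1 had fewer, Nr2e3 with 6 and 3 peaks (1.97%). From eA to lA none of 39 was called, where 4.85% of coding genes had more and 2.26% fewer.

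H3K4me1 was then examined at the places of stage-unique acetylation. Of the 86 lA-unique H3K27ac peaks, 36.0% (26.7 to 46.6%) overlapped an H3K4me1 peak in aNPC, 65.1% (54.6 to 74.3%) in eA and 77.9% (68.1 to 85.4%) in lA. Of the 58 eA-unique peaks, 70.7% (58.0 to 80.8%) did so in aNPC, 74.1% in eA and 74.1% in lA. Of the 111 aNPC-unique peaks, 73.9% (65.0 to 81.1%) did so in aNPC and 58.6% (49.3 to 67.3%) in lA. Thus H3K4me1 stood at most places of eA acetylation before it. It was also present in lA at most places of aNPC acetylation, although the share was 43.2% when H3K4me1 had to cover the peak summit. In the whole lists the shares at the same stages were 30.3%, 60.5% and 73.2% for lA, 60.2%, 73.4% and 68.9% for eA, and 68.5% and 49.6% for aNPC. All of these lie within the intervals of the members.

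**Figure D4:**
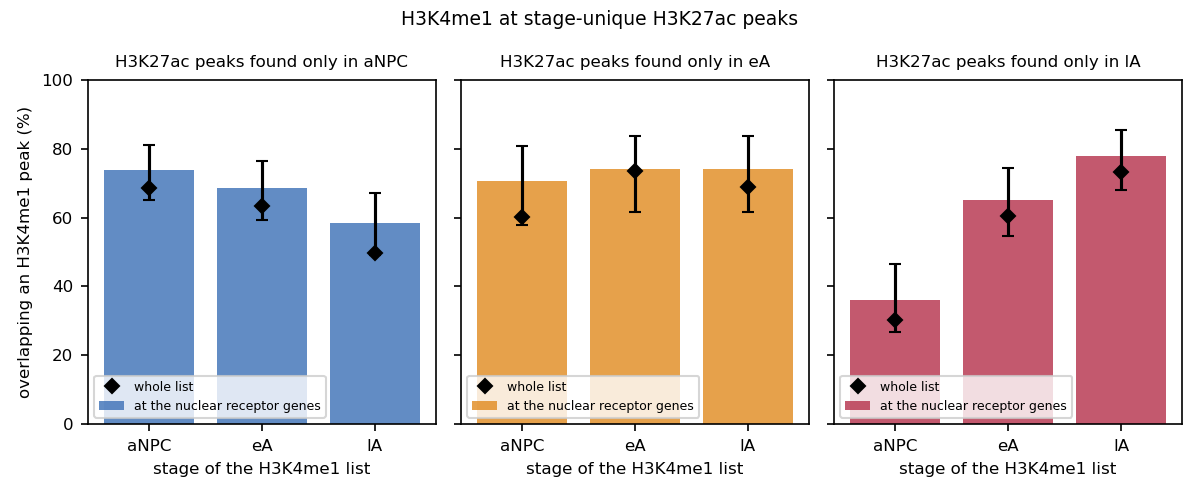
Percent of stage-unique H3K27ac peaks that overlap an H3K4me1 peak in aNPC, eA or lA, at the nuclear receptor genes (bars, with 95% Wilson intervals) and in the whole list (diamonds). The lA-unique peaks go from 36.0% in aNPC to 77.9% in lA, and the eA-unique peaks are at 70.7% already in aNPC.

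The 200 bp around the summits of the unique peaks were searched on both strands for 6 motifs, AGGTCA, AAAGGTCA of NR4A receptors, TCAAGGTCA of the estrogen-related and NR5 receptors, TTGGCA of NF1, TGANTCA of AP-1 and TGTGGTT of RUNX factors. The NR4A and the estrogen-related motifs contain the first of these, so their matches overlap it. The hexamer AGGTCA was found in 13 of the 111 aNPC-unique peaks (11.7%, 6.97 to 19.01%), 7 of the 58 eA-unique peaks (12.1%, 5.97 to 22.9%) and 20 of the 86 lA-unique peaks (23.3%, 15.6 to 33.2%). The unique peaks of the whole lists held it in 12.7%, 11.8% and 14.04%. The lA value was below the interval of the members, the only such case among 18 shares of 6 motifs at 3 stages. Of the 20 lA matches, 5 were at Thrb and 3 at Rarb. Without Thrb the share was 21.7% (13.6 to 32.8%), an interval that holds the value of the list. A match is a description of letters and not of binding. The other motifs stood in 0 to 17.2% of the unique peaks of the members. AP-1 was in 10.8%, 3.45% and 8.14%, against 6.64%, 7.04% and 6.82% in the lists, and NF1 in 9.01%, 17.2% and 9.30%, against 12.01%, 13.3% and 11.7%.

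Genes that act with the receptors were counted beside them, from lists of 14 coregulators, 14 genes of ligand supply and removal and 12 receptor target genes. The coregulators held 127, 125 and 113 H3K27ac peaks in aNPC, eA and lA. From aNPC to lA 1 of them was called with more, Ncor1, the corepressor of unliganded thyroid and retinoic acid receptors, with 2, 6 and 7 peaks, and none with fewer, where 17.1% and 7.38% of coding genes with at least 3 peaks were. The genes called below are read against the same shares and are named as a description. Of the ligand genes reported here, Cyp26b1, which degrades retinoic acid, held 1, 5 and 4 peaks, and Aldh1a3, which makes it, 1, 2 and 4, and both were called with more from aNPC to lA. Cyp46a1, a cholesterol hydroxylase, held 5, 3 and 2 and was called with fewer. The target genes held 58, 68 and 71 peaks, and Abca1, the cholesterol exporter induced by LXR, went from 4 to 11 and 11, while Tsc22d3, induced by glucocorticoids, went from 7 to 5 and 3. From aNPC to lA these were the 1 target gene called with more and the 1 called with fewer. No direction by receptor is read from the list, where Abcg1 held 3, 1 and 1 peaks and Fkbp5 9, 10 and 14.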

How the data were processed

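H3K27ac and H3K4me1 ChIP-seq peak lists of aNPC, eA and lA were analysed. Per the study's methods, the authors kept reads that Bowtie placed once in mm9, used SAMtools 0.1.19 to pool 2 replicates and called peaks with MACS2 at its defaults and without input. The deposited lists give each peak's position, summit and −log10 q, which the authors' caller computed. The −log10 q served only to rank or filter peaks within a list, since read depth is not given in the sources used here. Calling without input leaves local background in the lists, and the merging hides the spread between replicates.

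Mitochondrial peaks, 4 or 5 per list, were left out. Genes came from GENCODE M1, the annotation of mm9. Unique peaks shared not 1 bp with peaks of the same mark from the other stages. Shares have Wilson intervals. Members, gene lists and calls were chosen with earlier results of these data known. Described in full were the 4 members with the most unique H3K27ac peaks at each stage (ties included), every member called with more or fewer peaks, and every member whose promoter held H3K27ac at some stages only, 19 in all. The Esr1 and Vdr windows and the upstream window of Rarb were chosen after the counts were seen. Other flank, peak and call limits were tried as alternatives. The overlap code was tested on simulated lists. Python 3.11.15, NumPy 2.4.6, SciPy 1.17.1 and matplotlib 3.10.9 were used. RNA-seq, knockdown and other samples were not analysed here, and 8 RNA-seq samples were left without a group because their labels conflict. A gene of the ligand list is not reported here.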

Additional observations from a re-analysis of the deposited data

How the results depend on the processing

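No paired analysis was possible because the replicates were merged before the peaks were called and the lists carry no replicate columns. Over 22 results, 71 of 96 alternative values stayed within 1.5 times the count or within the interval of the share. With 50 kb flanks, the H3K27ac peaks numbered 449 in eA and 505 in lA and the lA-unique peaks 134, and 2 members had more peaks from aNPC to eA (14.8% of coding genes tested) and 2 from eA to lA (5.01%). At a −log10 q of at least 5, the unique peaks numbered 70, 36 and 43 over aNPC, eA and lA, 2 members had fewer peaks from eA to lA (4.20%), 4 had more (15.2%) and 1 had fewer (6.96%) from aNPC to lA, and 25.6% of lA-unique peaks overlapped H3K4me1 in aNPC. With H3K4me1 required at the summit, the shares were 43.2% for aNPC-unique peaks in lA and 52.3% for lA-unique peaks in eA. At 1.5-fold and 2 peaks, 9 members had fewer from aNPC to eA (12.1%), 5 more (13.1%) and 4 fewer (14.6%) from eA to lA, and 6 fewer from aNPC to lA (14.4%). With 79413 peaks in each H3K27ac list, 0 had more (3.32%) and 1 fewer (6.92%) from eA to lA, and 5 fewer from aNPC to lA (10.3%). In alternatives chosen after seeing the data, as was leaving out Rora or Thrb, joining peaks under 1 kb apart gave 3 members with more from aNPC to eA (8.75% of coding genes) and 1 with fewer from aNPC to lA (3.96%), and covered bases (2-fold and 1 kb) gave 3 with more from aNPC to eA (8.97%) and 4 from aNPC to lA (12.9%). The causes were not tested. Esr1 was called with more peaks from aNPC under each alternative and Vdr under each but the 50 kb flanks.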
